A study of Schizosaccharomyces pombe with 384 samples.

Results

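The transcriptome of *S. pombe* libraries labelled as the deletion of *nde2* (SPAC3A11.07) was compared with that of wild type. The 12 libraries compared were the 4 labelled SPAC3A11.07 and the 8 labelled wild type, chosen by these labels from the libraries of 94 knockout strains with 4 libraries each and of wild type. The assay sequences the polyadenylated ends of mRNA, so a transcript gives reads near its 3′ end. The *nde2*Δ libraries are replicates 1 to 4 of a haploid strain of the Bioneer deletion collection, in which the open reading frame is replaced by a drug resistance cassette, grown in well D3 of a 96-deepwell plate, and 1 strain stands for the genotype. The wild-type libraries came from wells A1 and A2, with 4 libraries each. Of these 8, the strain field of 2 reads wt and the others carry wt with a number, and 6 are described as knock-out strain in another field, but the strain label was followed. The labels give no other genotype or age for either group. Both groups were grown in YES, a rich medium with 30 g per litre of D-glucose, at 32 °C, for 2 days and then, after a second inoculation, for another 12 to 14 hours. The study calls the libraries of a knockout strain biological replicates, while nothing in the labels says whether they were separate cultures, for wild type either, so the p-values below measure the spread between these libraries. The libraries hold the RNA of whole cultures, so fewer cells that express a gene and less RNA of it in each cell cannot be told apart.

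*nde2* encodes an alternative NADH dehydrogenase of the mitochondrial inner membrane. Enzymes of this type take electrons from NADH outside the mitochondrial matrix and pass them to ubiquinone without pumping protons, and *S. pombe*, which has no proton-pumping complex I, relies on them to feed the respiratory chain with NADH. Cells growing on glucose also regain NAD by fermentation to ethanol and by making glycerol. The paralog in the deposited table is *nde1* (SPBC947.15c), while the reference used for gene types exchanges the names, so the names here are those of the table.

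Between 1641535 and 2016095 reads per *nde2*Δ library were counted on genes (median 1952870), and between 1578511 and 2126622 per wild-type library (median 1869959). Values are CPM, the read count relative to the size of the library as scaled by the authors. On this scale 3 reads, the limit that a count of 0 allows, are between 1.19 and 1.52 CPM in the *nde2*Δ libraries and between 1.38 and 2.27 CPM in wild type, for counting error only. Pearson's r of log2(CPM + 1) across transcripts was between 0.947 and 0.983 for pairs of *nde2*Δ libraries and between 0.960 and 0.986 for pairs of wild-type libraries. The *nde2*Δ libraries stood in 2 pairs in part of the genes, replicates 1 and 4 against 2 and 3, and replicate 1 stood apart in stress genes. *ura4*, a marker gene deleted in many laboratory strains, had 0 reads in all 12 libraries. The 4 genes of the M mating type, mat1-Mc, mat1-Mi, mat3-Mc and mat3-Mm, were also at 0 in all 12. Reads that match copies at both mat1 and mat3 may go uncounted, so these zeros do not give the mating type.

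The gene named in the label was measured first. *nde2* had 398, 274, 281 and 524 CPM in the *nde2*Δ libraries, against 287 to 444 CPM in wild type with a median of 372 CPM. The groups overlapped, with replicates 2 and 3 below the lowest wild-type library and replicate 4 above the highest, and the difference was not larger than the spread (log2 fold change -0.03, SE 0.19, adjusted p = 0.94, limma). Adjusted p stands for the Benjamini-Hochberg value over all transcripts tested. An exact permutation test over all splits into 4 and 8 libraries gave a two-sided p of 0.85. The gene spans chromosome I, 3456694 to 3459197 on the plus strand of ASM294v2. In the reference annotation the coding sequence ends 269 bases before the end of the gene, so reads near the polyadenylated end can fall outside the deleted part, and the level therefore checks the label only in part. In the following, *nde2*Δ stands for the libraries labelled so.

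The transcript that rose at the locus was the noncoding *SPNCRNA.909* (chromosome I, 3455156 to 3456884, minus strand), which runs away from *nde2* and shares its first 191 bases with the upstream end of the *nde2* gene on the other strand. It had 14.7, 9.14, 8.95 and 23.4 CPM in the *nde2*Δ libraries, against 1.17 to 7.52 CPM in wild type with a median of 2.58 CPM. Every *nde2*Δ library lay above every wild-type library (log2 fold change 2.28, SE 0.42, adjusted p = 0.0043, limma). Since the sources do not say whether the reads were counted by strand, its reads and those of overlapping genes cannot be told apart. The stretch shared with *nde2* is the start of both genes. The 3′ end of *SPNCRNA.909* lies inside the gene *pcu4* (chromosome I, 3452867 to 3455747, plus strand), whose reads may be counted with it. The other 9 of the 10 nearest genes did not pass the thresholds or had too few reads to be tested. *sod22*, a sodium antiporter gene, had 16.2, 11.5, 11.4 and 14.8 CPM in the *nde2*Δ libraries, against 10.5 to 17.04 CPM in wild type with a median of 13.4 CPM. *pcu4*, a cullin of ubiquitin ligases that overlaps *SPNCRNA.909*, had 14.2, 18.7, 21.4 and 17.5 CPM in the *nde2*Δ libraries, against 13.2 to 21.6 CPM in wild type with a median of 17.7 CPM. In both genes the groups overlapped (adjusted p = 0.99 and 0.98, limma). *SPNCRNA.910*, on the strand of *nde2*, stayed under 1 CPM in the *nde2*Δ libraries and reached at most 1.41 CPM in wild type. The paralog *nde1* had 53.2, 23.8, 27.8 and 27.4 CPM in the *nde2*Δ libraries, against 32.0 to 45.04 CPM in wild type with a median of 40.0 CPM (log2 fold change -0.30, SE 0.20, adjusted p = 0.39, limma), with replicate 1 above and the other 3 below the whole wild-type range.

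**Figure D1:**
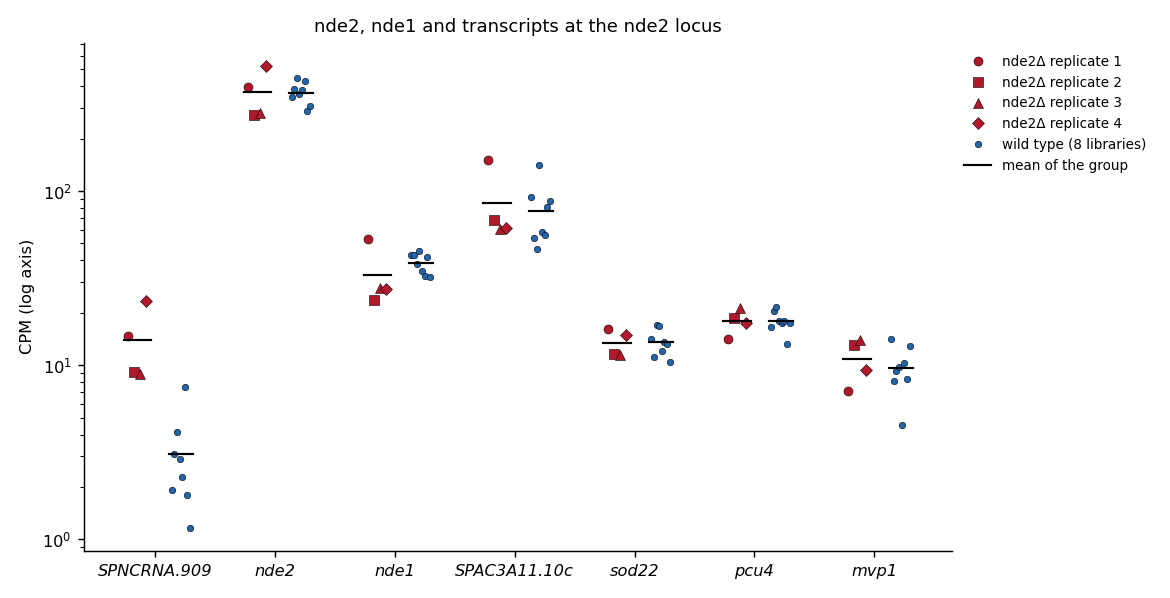
Levels in CPM (log axis) of *SPNCRNA.909*, *nde2*, *nde1* and 4 other genes near *nde2* in each library, with red symbols for the 4 *nde2*Δ libraries, blue points for the 8 wild-type libraries and bars for the group means. The *nde2*Δ libraries sit at 8.95 to 23.4 CPM for *SPNCRNA.909*, above all wild-type libraries, and for none of the other genes shown do all 4 lie on one side of all wild-type libraries.

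With the deposited scaling, noncoding transcripts made up most of the rises across the transcriptome and abundant protein-coding transcripts most of the falls. Of 5498 transcripts tested, 446 (8.1%) were altered, meaning that the log2 fold change was 0.6 or more in either direction and the limma p no more than 0.005, and 247 (4.49%) were higher and 199 (3.62%) lower in *nde2*Δ. At the same fold change and an adjusted p below 0.05 the count was 453 (8.2%), and the 446 were all among them. All 4 *nde2*Δ libraries lay on the same side of all 8 wild-type libraries for 449 transcripts (8.2%), 290 of which were altered. Of the 247 higher transcripts 165 were noncoding or of another type, with a median level of 14.0 CPM in *nde2*Δ, and 82 were protein-coding. Of the 199 lower transcripts 196 were protein-coding, with a median level of 641 CPM in wild type, and for 163 of these a group mean was at least 100 CPM.

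The balance of rises and falls depended on the scaling of the libraries. With each library centred on its median, 217 were higher and 236 lower, and with median-of-ratios size factors 229 of 444 were higher. In CPM computed from the gene reads with no scaling factor, called unscaled CPM here, 780 were higher and 49 lower, and the median log2 fold change of all transcripts was 0.36, against 0.04 with the deposited scaling. Of these 780 higher transcripts 474 were protein-coding, so noncoding ones did not make up most of the rises in unscaled CPM. Without replicate 4 the count of higher transcripts was 156, and without replicate 1 it was 168. Against the 4 wild-type libraries of well A1 only, 179 were higher and 160 lower, and against the 4 of well A2 only, 152 were higher and 114 lower. Of 63 altered transcripts named below by rule, 16 did not pass against well A2 only, among them *hsp9*, *gpx1*, *gpd1*, *cox13*, *pho1*, *prl65*, *SPCC663.08c* and *SPBPB2B2.01*, and 8 against well A1 only, among them *sme2* and *prl65*. In unscaled CPM 13 did not pass, among them *adh1*, *lat1*, *dld1*, *tpx1* and *eft201*. None of the 63 changed direction in a setting that was run. Of the 446 altered transcripts 303 overlap another gene of the annotation, so their reads are uncertain. Such overlap is common, with 5171 of all 7259 genes of the deposited table overlapping another.

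Glycolysis had the lowest median of the 27 lists examined. Of 13 glycolytic genes tested 9 fell, 0 rose and 4 did not pass the test, and the median log2 fold change was -0.83, against 0.04 over all transcripts. In unscaled CPM 6 fell and the median was -0.51, which is -0.87 relative to all transcripts. At each step from hexose phosphorylation to pyruvate a gene fell, other than at that of glyceraldehyde-3-phosphate dehydrogenase. The enolase gene *eno101* (chromosome II, 2201159 to 2202652) had 3323, 2865, 3449 and 3152 CPM in the *nde2*Δ libraries, against 7935 to 13116 CPM in wild type with a median of 11033 CPM. All 4 *nde2*Δ libraries lay below the lowest wild-type library, and the fitted level was 3.31-fold lower (log2 fold change -1.73, SE 0.16, adjusted p = 0.00013, limma, exact permutation p = 0.0020, the smallest the design allows).

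The genes of the first steps fell as well. *hxk2*, a hexokinase, had 689, 491, 629 and 704 CPM in the *nde2*Δ libraries, against 1118 to 1752 CPM in wild type with a median of 1493 CPM (log2 fold change -1.23, SE 0.15, adjusted p = 0.00059, limma). The fructose-bisphosphate aldolase gene *fba1* had 4516, 3196, 3957 and 4933 CPM in the *nde2*Δ libraries, against 8027 to 10771 CPM in wild type with a median of 9389 CPM (log2 fold change -1.203, SE 0.14, adjusted p = 0.00041, limma). In both cases the groups did not overlap. *pgi1*, the glucose-6-phosphate isomerase gene, and *pfk1*, that of phosphofructokinase, changed by -1.12 and -0.83 on the log2 scale. *tpi1*, which encodes triosephosphate isomerase, had 5765, 4749.9, 4873 and 6043 CPM in the *nde2*Δ libraries, against 8011 to 10367 CPM in wild type with a median of 9224 CPM (log2 fold change -0.79, SE 0.12, adjusted p = 0.0017, limma).

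In the lower part of the pathway, the phosphoglycerate kinase gene *pgk1* had 6112, 6780.3, 7844 and 5006 CPM in the *nde2*Δ libraries, against 11410.3 to 17319 CPM in wild type with a median of 15731 CPM (log2 fold change -1.24, SE 0.16, adjusted p = 0.00059, limma). *gpm1*, which encodes phosphoglycerate mutase, had 2842, 1848, 2032 and 2987 CPM in the *nde2*Δ libraries, against 4379 to 6779.6 CPM in wild type with a median of 6328 CPM (log2 fold change -1.30, SE 0.18, adjusted p = 0.00083, limma). The pyruvate kinase gene *pyk1* had 4341, 4482, 4789 and 4002 CPM in the *nde2*Δ libraries, against 5109 to 8901 CPM in wild type with a median of 7686 CPM (log2 fold change -0.70, SE 0.16, adjusted p = 0.015, limma). All 3 genes were lower in every *nde2*Δ library than in every wild-type library. The 4 glycolytic genes that did not pass were *hxk1* (-0.46), the glyceraldehyde-3-phosphate dehydrogenase genes *tdh1* (-0.53) and *gpd3* (-0.37), and the second enolase gene *eno102* (1.61). The dehydrogenase genes spread widely among the *nde2*Δ libraries. *tdh1* had 5859, 9596, 10855 and 2789 CPM in the *nde2*Δ libraries, against 7263 to 13339.8 CPM in wild type with a median of 8971 CPM. *gpd3* had 1437, 659, 662 and 1492 CPM in the *nde2*Δ libraries, against 962 to 1935 CPM in wild type with a median of 1279 CPM. Replicates 1 and 4 were thus the low libraries for *tdh1* and the high ones for *gpd3*, and reads of near-identical copies may be split between them.

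The step from pyruvate to ethanol, which regains NAD, followed the same direction in its main genes. *pdc101*, the major pyruvate decarboxylase gene, had 2050.4, 1705, 1974 and 2337 CPM in the *nde2*Δ libraries, against 3922 to 5981 CPM in wild type with a median of 4956 CPM (log2 fold change -1.29, SE 0.15, adjusted p = 0.00041, limma). *adh1*, the alcohol dehydrogenase gene, had 4586, 4465, 4849.9 and 3799 CPM in the *nde2*Δ libraries, against 6044 to 9757 CPM in wild type with a median of 8102 CPM (log2 fold change -0.83, SE 0.15, adjusted p = 0.0036, limma), and overlaps 4 other genes on the other strand. These were the 2 of 6 fermentation genes that fell, and none rose. The other pyruvate decarboxylase gene *pdc201* was at 213, 8.35, 5.96 and 6.30 CPM in the *nde2*Δ libraries, against 1.15 to 5.24 CPM in wild type with a median of 2.29 CPM (log2 fold change 2.71, SE 0.81, adjusted p = 0.049, limma). Replicate 1 alone was far above the rest, but replicates 2 to 4 also lay above every wild-type library. Its unadjusted limma p of 0.0052 was just over the threshold. Without replicate 4, 1 of the 6 genes rose. The median of the 6 genes was -0.31 with the deposited scaling but 0.02 in unscaled CPM, where all transcripts had a median of 0.36.

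**Figure D2:**
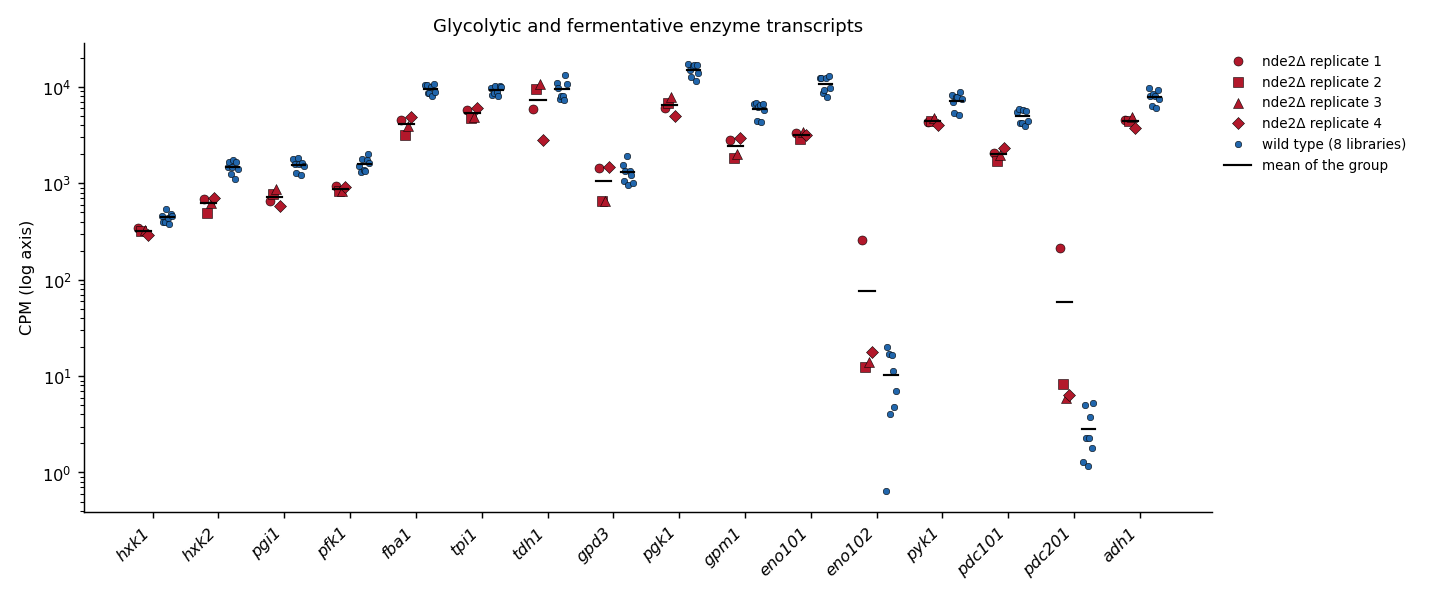
Levels in CPM (log axis) of glycolytic and fermentative transcripts in each library, in the order of the pathway, with red symbols for the 4 *nde2*Δ libraries, blue points for the 8 wild-type libraries and bars for the group means. For *eno101* the *nde2*Δ libraries sit between 2865 and 3449 CPM, below all wild-type libraries, while for *eno102* and *pdc201* replicate 1 is far above all other libraries at 259.8 and 213 CPM.

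Among 10 genes of NADH dehydrogenases and of the shuttles that carry NADH between compartments, 3 fell, 0 rose and 7 did not pass the test, with a median of -0.50. In unscaled CPM 1 fell. Besides *adh1* the genes that fell were *mae2* and *gpd1*. The malic enzyme gene *mae2* had 700.3, 824, 788 and 566 CPM in the *nde2*Δ libraries, against 1130.1 to 1745 CPM in wild type with a median of 1402 CPM (log2 fold change -0.96, SE 0.16, adjusted p = 0.0025, limma), without overlap. *gpd1*, which encodes the glycerol-3-phosphate dehydrogenase that makes glycerol with NADH, had 804, 657, 639.6 and 533 CPM in the *nde2*Δ libraries, against 759 to 1698 CPM in wild type with a median of 1173 CPM (log2 fold change -0.82, SE 0.22, adjusted p = 0.031, limma). Its groups overlapped, and it was not altered when any 1 of replicates 2, 3 and 4 was left out. *gut2*, the mitochondrial partner of *gpd1* in the glycerol phosphate shuttle, had 5.57, 30.6, 36.3 and 44.98 CPM in the *nde2*Δ libraries, against 0.757 to 48.5 CPM in wild type with a median of 7.27 CPM (log2 fold change 1.28, SE 0.71, adjusted p = 0.29, limma), so that its wild-type libraries spanned the whole *nde2*Δ range.

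Of 15 genes of the TCA cycle and pyruvate dehydrogenase 3 fell and 0 rose, and all 3 encode subunits of pyruvate dehydrogenase, the complex that turns pyruvate into acetyl-CoA. *lat1*, its acetyltransferase, had 207, 187, 203 and 175 CPM in the *nde2*Δ libraries, against 299 to 432 CPM in wild type with a median of 338 CPM (log2 fold change -0.86, SE 0.13, adjusted p = 0.0013, limma). *dld1*, its lipoamide dehydrogenase, had 265, 239, 276 and 242 CPM in the *nde2*Δ libraries, against 356 to 471 CPM in wild type with a median of 409 CPM (log2 fold change -0.67, SE 0.11, adjusted p = 0.0024, limma). *pdb1*, the beta subunit of its first enzyme, changed by -0.62 and was not altered without replicate 4, and *pda1*, the alpha subunit, was at -0.51, short of the fold threshold. For *lat1* and *dld1* no *nde2*Δ library reached the wild-type range. The citrate synthase gene *cit1* (-0.30), the aconitase gene *aco1* (-0.21) and the fumarase gene *fum1* (-0.32) did not pass. The median of the 15 genes was -0.32. Without replicate 1 it was -0.50 and 5 genes fell. In unscaled CPM it was 0.004, which is -0.36 relative to all transcripts, and 0 fell.

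Of 21 genes of complexes II to IV and cytochrome c, 1 rose and 0 fell (median 0.09), and the same counts held for 13 ATP synthase genes (median 0.18). In unscaled CPM 6 and 4 of them rose, and without replicate 1 the medians were -0.07 and 0.07. With the deposited scaling, a count of 1 in lists of this size is near the share of all transcripts that were higher (4.49%). *cox13*, a small subunit of cytochrome c oxidase, had 125, 112, 117 and 173 CPM in the *nde2*Δ libraries, against 53.0 to 100.4 CPM in wild type with a median of 80.1 CPM (log2 fold change 0.75, SE 0.20, adjusted p = 0.027, limma), and was not altered without replicate 4. *atp19*, a small subunit of the ATP synthase, had 205, 149, 166 and 219.5 CPM in the *nde2*Δ libraries, against 97.3 to 122 CPM in wild type with a median of 109 CPM (log2 fold change 0.74, SE 0.13, adjusted p = 0.0035, limma). Every *nde2*Δ library was above every wild-type library for both. Of 52 mitochondrial ribosomal protein genes 2 rose, *mrp20* (0.63) and *mrpl8* (0.86), neither of them without replicate 4 and *mrpl8* not without replicate 2. The 2 are a share near that of all transcripts that were higher (4.49%), and in unscaled CPM 12 of the 52 rose. Of 10 tested protein and tRNA genes on the mitochondrial chromosome 0 were altered. The *21S_rRNA* of the mitochondrial ribosome, outside that list and named after its values were seen, rose with 3149.8, 1867, 2072 and 2119.7 CPM in the *nde2*Δ libraries, against 1134 to 2074 CPM in wild type with a median of 1426 CPM (log2 fold change 0.63, SE 0.19, adjusted p = 0.046, limma), with replicate 1 the highest and replicates 2 and 3 inside the wild-type range. The cytochrome c oxidase gene *cox2* of that chromosome had 73.9, 38.5, 52.7 and 36.0 CPM in the *nde2*Δ libraries, against 34.1 to 102 CPM in wild type with a median of 49.6 CPM, with overlap.

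Of the translation machinery, elongation genes fell throughout and ribosomal protein genes in part. All 7 translation elongation genes tested fell, with a median of -0.82. In unscaled CPM their median was -0.49, which is -0.86 relative to all transcripts, and 3 of the 7 were altered. *tef101*, *tef102* and *tef103* are near-identical copies of the gene for elongation factor 1 alpha, which brings aminoacyl-tRNA to the ribosome, so reads may be split between them. *tef101* (chromosome III, 267955 to 269523) had 2753, 1525, 1869.6 and 2973 CPM in the *nde2*Δ libraries, against 4655 to 8599 CPM in wild type with a median of 5971 CPM (log2 fold change -1.48, SE 0.22, adjusted p = 0.0012, limma). *tef103* had 3840.0, 1897, 2344 and 4141 CPM in the *nde2*Δ libraries, against 5257 to 9546 CPM in wild type with a median of 6463 CPM (log2 fold change -1.21, SE 0.24, adjusted p = 0.0062, limma). *tef102* had 1751, 1113, 1233 and 1824 CPM in the *nde2*Δ libraries, against 2595 to 4284 CPM in wild type with a median of 3003 CPM (log2 fold change -1.12, SE 0.19, adjusted p = 0.0026, limma). For all 3 copies replicates 2 and 3 were the lowest, and no *nde2*Δ library reached the wild-type range. The elongation factor 2 genes *eft201* and *eft202*, also near-identical, changed by -0.79 and -0.82, the elongation factor 3 gene *tef3* by -0.73 and *tef5*, for a subunit of the exchange factor of elongation factor 1, by -0.72.

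Of 141 genes of cytoplasmic ribosomal proteins 45 fell, 1 rose and 95 did not pass the test, and 117 had a negative log2 fold change. Their median was -0.42 with the deposited scaling and -0.09 in unscaled CPM, where 17 fell and the median relative to all transcripts was -0.45. The summed level of the 141 genes was 455609, 346041, 363987 and 447944 CPM in the *nde2*Δ libraries, against 436159 to 629567 CPM in wild type with a median of 515308 CPM. Replicates 2 and 3 thus lay below every wild-type library and replicates 1 and 4 inside the range, and in 108 of the 141 genes both replicates 1 and 4 were above both replicates 2 and 3. Leaving out 1 of the 12 libraries at a time, between 35 and 62 of them fell.

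The largest fall in this group was that of *rps1401* (chromosome I, 3436186 to 3436825), which had 321, 677, 724 and 374 CPM in the *nde2*Δ libraries, against 1345 to 1759 CPM in wild type with a median of 1531 CPM (log2 fold change -1.63, SE 0.20, adjusted p = 0.00059, limma). Here replicates 1 and 4 were the lowest, unlike in most ribosomal protein genes. *rps1002* had 1638, 926, 1103 and 1872 CPM in the *nde2*Δ libraries, against 2874 to 4925 CPM in wild type with a median of 3825 CPM (log2 fold change -1.46, SE 0.21, adjusted p = 0.00084, limma). *rps001* had 2828, 1505, 1799 and 3150.3 CPM in the *nde2*Δ libraries, against 4434 to 8521 CPM in wild type with a median of 5718 CPM (log2 fold change -1.39, SE 0.24, adjusted p = 0.0028, limma). Most ribosomal proteins of *S. pombe* are encoded by more than 1 similar gene, and both *rps1001* (-1.097) and *rps1002*, and both *rpl301* (-1.099) and *rpl302* (-0.98), fell. The gene that rose was *rpp202*, for an acidic protein of the ribosomal stalk, with 8248, 3009, 3043 and 6587 CPM in the *nde2*Δ libraries, against 2198 to 3027 CPM in wild type with a median of 2355 CPM (log2 fold change 0.95, SE 0.25, adjusted p = 0.027, limma). It was not altered without replicate 1 or without replicate 4, its 2 highest libraries, and the stalk genes *rpp201*, *rpp203*, *rpp102* and *rpp103* changed by -0.83, -0.89, -0.92 and -0.98.

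Upstream sequences of genes that fell are shown because ribosomal protein and elongation factor genes of *S. pombe* often carry a HomolD box, the promoter element CAGTCACA, near their start. Each stretch starts 250 bases before the gene start of RefSeq (ASM294v3) and was shortened where the table's gene model begins earlier. Capitals mark the motif on either strand, which is the HomolD box in the first 3 stretches, the Atf1 site core TGACGT, read on both strands and overlapping, in *fba1*, and the heat shock motif GAANNTTC in *hsp90*.
tef101, chrIII:269524-269766, minus strand: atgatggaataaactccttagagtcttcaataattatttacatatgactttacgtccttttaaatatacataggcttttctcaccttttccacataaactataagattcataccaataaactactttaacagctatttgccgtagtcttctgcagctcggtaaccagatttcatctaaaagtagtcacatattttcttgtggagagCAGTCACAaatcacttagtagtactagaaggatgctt
rps001, chrII:2778655-2778867, plus strand: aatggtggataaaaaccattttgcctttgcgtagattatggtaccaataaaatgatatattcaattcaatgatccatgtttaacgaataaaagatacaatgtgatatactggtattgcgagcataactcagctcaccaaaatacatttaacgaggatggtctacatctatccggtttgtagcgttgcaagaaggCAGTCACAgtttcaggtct
tpi1, chrIII:939663-939912, plus strand: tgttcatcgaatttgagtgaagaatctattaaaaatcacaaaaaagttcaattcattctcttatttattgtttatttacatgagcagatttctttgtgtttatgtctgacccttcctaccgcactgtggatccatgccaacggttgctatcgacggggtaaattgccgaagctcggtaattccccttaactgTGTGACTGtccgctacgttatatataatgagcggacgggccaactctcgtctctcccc
fba1, chrII:1688071-1688320, plus strand: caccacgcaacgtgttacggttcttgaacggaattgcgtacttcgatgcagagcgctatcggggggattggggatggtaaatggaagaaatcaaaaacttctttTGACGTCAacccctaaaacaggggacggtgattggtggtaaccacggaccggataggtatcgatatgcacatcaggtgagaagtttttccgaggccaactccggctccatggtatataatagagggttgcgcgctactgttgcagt
hsp90, chrI:3891158-3891389, minus strand: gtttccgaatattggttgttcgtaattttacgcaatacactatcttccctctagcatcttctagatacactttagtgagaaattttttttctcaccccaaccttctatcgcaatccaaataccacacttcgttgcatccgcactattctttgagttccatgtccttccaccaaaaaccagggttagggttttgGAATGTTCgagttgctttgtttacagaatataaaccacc

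The HomolD box lay 44 to 37 bases before the start of *tef101*, 56 to 49 bases before that of *rps001* and, on the other strand, 58 to 51 bases before that of *tpi1*. It was present in the 250 bases before 133 of 4714 protein-coding genes tested (2.82%). Of the 141 ribosomal protein genes 88 held it (62.4%), of the 45 that fell 34 (75.6%) and of the other 96 genes 54 (56.3%). It was in 4 of the 7 elongation genes, in 49 of the 196 protein-coding genes that fell (25%) and in 0 of the 82 that rose. *rps1401* and *rps1002*, the ribosomal protein genes with the largest falls, held none of the 3 motifs in this window. The Atf1 site core was in 256 of all 4714 windows (5.43%) and in 3 of 13 glycolytic genes, *fba1*, *pgk1* and *pfk1*. The heat shock motif was in 439 of all windows (9.31%), in 10 of 17 chaperone genes and in 4 of the 8 chaperone genes that fell. A match describes the letters in the window, not a bound site.

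Heat shock and chaperone genes had falls and no rises that passed the test, but replicate 1 was high in part of them. Of 17 heat shock and chaperone genes 8 fell, 0 rose and 9 did not pass the test, with a median of -0.61, and 5 fell without replicate 4 or against well A1 only, 4 against well A2 only and 4 in unscaled CPM, where the median was -0.28. Their summed level was 14514, 6617, 6754 and 5805 CPM in the *nde2*Δ libraries, against 9164 to 13185 CPM in wild type with a median of 12219 CPM. Replicate 1 thus lay above every wild-type library and replicates 2 to 4 below. The list includes *hsp16*, described below. *ssa2*, a cytosolic Hsp70 gene (chromosome III, 2057084 to 2059331), had 1179.9, 1111, 1053 and 1172 CPM in the *nde2*Δ libraries, against 2444 to 3967 CPM in wild type with a median of 3207 CPM (log2 fold change -1.501, SE 0.15, adjusted p = 0.00019, limma). The 4 values were close to each other and all below the wild-type range. *hsp90* had 655, 778, 909 and 424 CPM in the *nde2*Δ libraries, against 1074 to 1953 CPM in wild type with a median of 1829 CPM (log2 fold change -1.27, SE 0.23, adjusted p = 0.004, limma). The mitochondrial chaperonin gene *mcp60* had 289.7, 347, 374 and 248 CPM in the *nde2*Δ libraries, against 513 to 814 CPM in wild type with a median of 695 CPM (log2 fold change -1.12, SE 0.16, adjusted p = 0.0012, limma). *ssc1*, the mitochondrial Hsp70 gene, had 229, 243, 304 and 211 CPM in the *nde2*Δ libraries, against 422 to 606 CPM in wild type with a median of 528 CPM (log2 fold change -1.09, SE 0.14, adjusted p = 0.00059, limma). Again no *nde2*Δ library reached wild type for these 3 genes. The cochaperone genes *sti1* and *wos2* changed by -0.92 and -0.85, the ribosome-associated Hsp70 gene *sks2* by -0.62 and *bip1*, the Hsp70 of the endoplasmic reticulum, by -0.61. *hsf1*, which encodes the heat shock transcription factor, was at 0.04.

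Stress-inducible transcripts instead separated replicate 1 from the other *nde2*Δ libraries. In replicate 1, 43 transcripts were at least 4 times as high as in every other *nde2*Δ library, against 0, 0 and 2 transcripts for replicates 2, 3 and 4, and at most 1 for a wild-type library among its group. A wild-type library was set against more libraries than an *nde2*Δ library, so its count is harder to reach and not like for like. Over all transcripts, the deviation of replicate 1 from its group mean correlated with that of the same-numbered library of 3 other knockout strains at a Pearson's r of 0.56, 0.58 and 0.61, and of wild type at 0.153, a description across transcripts. *hsp16*, a small heat shock protein gene, had 7990.4, 819, 599 and 552 CPM in the *nde2*Δ libraries, against 246 to 1369.8 CPM in wild type with a median of 366 CPM. *inv1*, the invertase gene that glucose represses, had 981, 32.6, 35.8 and 58.0 CPM in the *nde2*Δ libraries, against 13.8 to 141 CPM in wild type with a median of 29.1 CPM. *fbp1*, the gluconeogenic fructose-1,6-bisphosphatase gene, had 225, 8.74, 10.9 and 22.5 CPM in the *nde2*Δ libraries, against 2.57 to 27.3 CPM in wild type with a median of 18.3 CPM. Replicate 1 was the only *nde2*Δ library above the wild-type range in *hsp16*, *inv1* and *fbp1*, and none of these passed the test (log2 fold changes 1.504 for *hsp16*, 1.56 for *inv1* and 0.95 for *fbp1*). Replicate 1 was also alone in *ssa1*, the inducible Hsp70 gene, which had 442, 48.1, 53.2 and 45.9 CPM in the *nde2*Δ libraries, against 34.1 to 323 CPM in wild type with a median of 50.4 CPM.

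Of 18 core environmental stress genes, which *S. pombe* induces in many stresses, 2 rose, 1 fell and 15 did not pass the test, with a median of 0.49, which was 0.13 without replicate 1. In unscaled CPM 5 rose and 0 fell. Their summed level was 15284 CPM in replicate 1 and 3502, 3316 and 2594 CPM in replicates 2 to 4, against 2347 to 5700 CPM in wild type with a median of 2733 CPM. *hsp9*, a small stress-induced protein gene, rose with 3546, 671, 626 and 517 CPM in the *nde2*Δ libraries, against 122 to 579 CPM in wild type with a median of 161 CPM (log2 fold change 2.26, SE 0.49, adjusted p = 0.011, limma). The other 3 libraries also lay above 7 of the 8 wild-type libraries. *gpx1*, the glutathione peroxidase gene, had 268, 173, 188 and 157 CPM in the *nde2*Δ libraries, against 81.6 to 165 CPM in wild type with a median of 97.8 CPM (log2 fold change 0.90, SE 0.20, adjusted p = 0.012, limma). The gene that fell was *gpd1*, described above. Of 20 oxidative stress genes 2 rose, *gpx1* and the glutathione S-transferase gene *gst2*, and 1 fell. Over all transcripts 4.49% were higher and 3.62% lower. In lists of 18 and 20 genes, counts of 2 and 1 are not far from these shares. *gst2* had 772, 329.9, 259.9 and 145 CPM in the *nde2*Δ libraries, against 74.0 to 144 CPM in wild type with a median of 88.4 CPM (log2 fold change 1.75, SE 0.34, adjusted p = 0.0056, limma), so replicate 4 was just above the highest wild-type library and replicate 1 far above it. The gene that fell, *tpx1*, encodes the main peroxiredoxin and had 368, 336, 364.8 and 319 CPM in the *nde2*Δ libraries, against 466 to 813 CPM in wild type with a median of 653 CPM (log2 fold change -0.86, SE 0.16, adjusted p = 0.0048, limma). The catalase gene *ctt1* (1.203) did not pass.

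**Figure D3:**
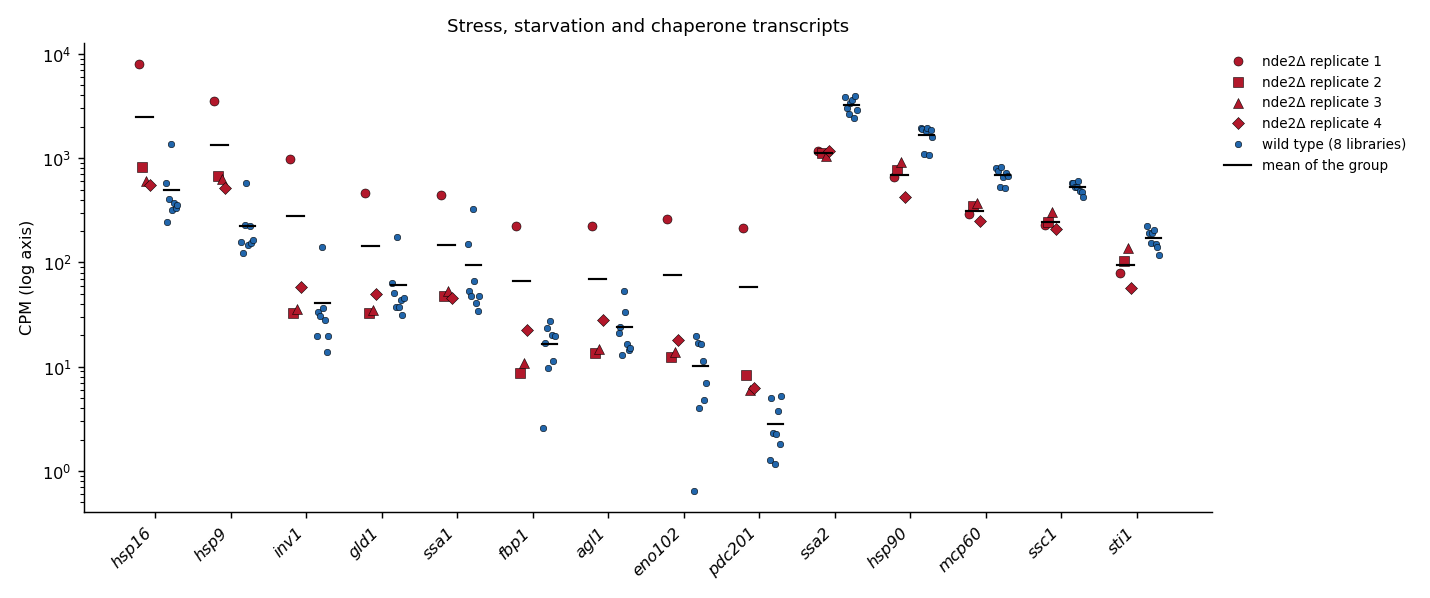
Levels in CPM (log axis) of stress, starvation and chaperone transcripts in each library, with red symbols for the 4 *nde2*Δ libraries, blue points for the 8 wild-type libraries and bars for the group means. From *hsp16* to *pdc201*, replicate 1 (circle) is the highest *nde2*Δ library, with 7990 CPM of *hsp16*, while from *ssa2* to *ssc1* all 4 *nde2*Δ libraries sit below wild type.

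Amino acid biosynthesis was the other metabolic group with many falls. Of 59 genes tested 23 fell, 0 rose and 36 did not pass, and 53 were negative, with a median of -0.56. In unscaled CPM 6 fell and the median was -0.23, which is -0.59 relative to all transcripts, and against well A2 only 15 fell. The largest fall among the altered transcripts was that of *met17* (chromosome II, 465475 to 467247), which encodes the enzyme that takes sulfide into homocysteine and had 57.2, 68.8, 73.6 and 40.0 CPM in the *nde2*Δ libraries, against 121 to 247 CPM in wild type with a median of 223 CPM (log2 fold change -1.75, SE 0.24, adjusted p = 0.0008, limma). *ilv5*, an enzyme gene of branched-chain amino acid synthesis, had 1614, 1558, 1699 and 1673 CPM in the *nde2*Δ libraries, against 3030.0 to 4410.4 CPM in wild type with a median of 3689 CPM (log2 fold change -1.16, SE 0.13, adjusted p = 0.00041, limma). *eca39*, the branched-chain aminotransferase gene, had 596, 581, 708 and 518 CPM in the *nde2*Δ libraries, against 1022 to 1387 CPM in wild type with a median of 1298 CPM (log2 fold change -1.09, SE 0.12, adjusted p = 0.00039, limma). *gdh1*, which encodes the NADPH-dependent glutamate dehydrogenase of ammonium assimilation, had 85.6, 112, 128 and 90.0 CPM in the *nde2*Δ libraries, against 220.3 to 312 CPM in wild type with a median of 240.1 CPM (log2 fold change -1.28, SE 0.14, adjusted p = 0.00034, limma). In none of the 4 genes did the groups overlap. Leucine synthesis (*leu1* -0.99, *leu2* -0.74), lysine synthesis (*lys1* -1.03, *lys2* -0.77), arginine synthesis (*arg3* -0.71, *arg4* -0.95, *arg12* -0.96) and glutamine synthetase (*gln1* -0.98) were among the falls.

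In 10 purine synthesis genes 9 values were negative with a median of -0.42, but 0 were altered. *ade8* had 334, 309.6, 307 and 259.6 CPM in the *nde2*Δ libraries, against 343 to 467 CPM in wild type with a median of 428 CPM (log2 fold change -0.46, SE 0.13, adjusted p = 0.036, limma), without overlap. Of the marker genes of laboratory strains, *leu1* fell, with 547, 450.3, 554 and 575 CPM in the *nde2*Δ libraries, against 808 to 1309 CPM in wild type with a median of 1054 CPM (log2 fold change -0.99, SE 0.15, adjusted p = 0.0014, limma), while *ade6* (-0.50), *his3* (-0.43) and *his7* (-0.42) did not pass.

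Nutrient-responsive groups showed few altered members. Of 7 phosphate genes 2 fell. The acid phosphatase gene *pho1* had 331, 902, 941 and 779.6 CPM in the *nde2*Δ libraries, against 1159 to 2094 CPM in wild type with a median of 1666 CPM (log2 fold change -1.198, SE 0.27, adjusted p = 0.013, limma). *pho84*, a phosphate transporter gene next to it, had 647, 688, 668 and 858 CPM in the *nde2*Δ libraries, against 754 to 1284 CPM in wild type with a median of 1198 CPM (log2 fold change -0.64, SE 0.16, adjusted p = 0.021, limma), and was not altered without replicate 1 or without replicate 3. Replicate 1 was the lowest library for both genes. *snz1*, which encodes a subunit of the enzyme for vitamin B6 synthesis and is 1 of 9 vitamin genes, fell to 255, 164, 124 and 228 CPM in the *nde2*Δ libraries, against 264 to 572 CPM in wild type with a median of 395 CPM (log2 fold change -1.097, SE 0.23, adjusted p = 0.0097, limma). *ctr5*, a copper transporter gene, rose as the only one of 10 zinc and copper genes, with 2970.5, 1382, 1371 and 2369.8 CPM in the *nde2*Δ libraries, against 1009 to 1436 CPM in wild type with a median of 1172 CPM (log2 fold change 0.70, SE 0.21, adjusted p = 0.044, limma). Its replicates 2 and 3 lay inside the wild-type range, and it was not altered without replicate 1 or without replicate 4. *erg1*, the squalene epoxidase gene, was the only one of 20 ergosterol genes that fell (log2 fold change -0.73, SE 0.18, adjusted p = 0.024, limma), and not without replicate 4. The 1 altered member in each of the vitamin, zinc and copper, and ergosterol lists is near the share of all transcripts altered (8.1%). The medians of the phosphate, vitamin, zinc and copper, and ergosterol lists were -0.14, -0.14, -0.03 and -0.13 with the deposited scaling. In unscaled CPM all were positive, which is -0.17, -0.18, -0.07 and -0.17 relative to all transcripts. Without replicate 1 the phosphate median was -0.36, and 3 vitamin genes fell.

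Altered members were 0 among 9 glucose-repressed genes and hexose transporters, 11 iron genes, 17 nitrogen genes, 12 targets of the G1-S factor MBF, 10 histone genes and 10 flocculin and cell surface genes. In lists this short a count of 0 is not far from the share of all transcripts altered (8.1%). *ght5*, the main high-affinity hexose transporter gene, had 1017, 973, 961 and 806 CPM in the *nde2*Δ libraries, against 326 to 2052 CPM in wild type with a median of 900.2 CPM (log2 fold change 0.20, SE 0.40, adjusted p = 0.8, limma), so that the *nde2*Δ libraries lay close together inside the wider range of wild type. *hta2*, a histone H2A gene, had 2766, 1909, 2123 and 2559 CPM in the *nde2*Δ libraries, against 1978 to 2691 CPM in wild type with a median of 2265 CPM. *hhf1*, a histone H4 gene, was at 0.31, the hexose transporter gene *ght8* at -0.41, the iron genes *pcl1* and *fep1* at 0.01 and -0.29, the nitrogen genes *gaf1* and *ptr2* at -0.10 and 0.09, the MBF targets *suc22* and *dut1* at -0.23 and -0.11, and *fta5* of the surface list at -0.75 on the log2 scale. The flocculin gene *gsf2* had 491, 173, 201 and 897 CPM in the *nde2*Δ libraries, against 339 to 509.8 CPM in wild type with a median of 409 CPM, with replicates 2 and 3 below and replicate 4 above the whole wild-type range. Of 22 genes of the pheromone response and mating type 1 rose and 1 fell, near the shares of all transcripts (4.49% higher and 3.62% lower). *ste4*, which encodes an adaptor of the pheromone kinase cascade, had 7.60, 9.94, 9.94 and 12.146 CPM in the *nde2*Δ libraries, against 2.89 to 9.41 CPM in wild type with a median of 4.14 CPM (log2 fold change 1.1, SE 0.27, adjusted p = 0.02, limma), and was not altered without replicate 4. The protease gene *sxa1* fell with a log2 fold change of -0.62 and was not altered without replicate 1 or without replicate 4.

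**Figure D4:**
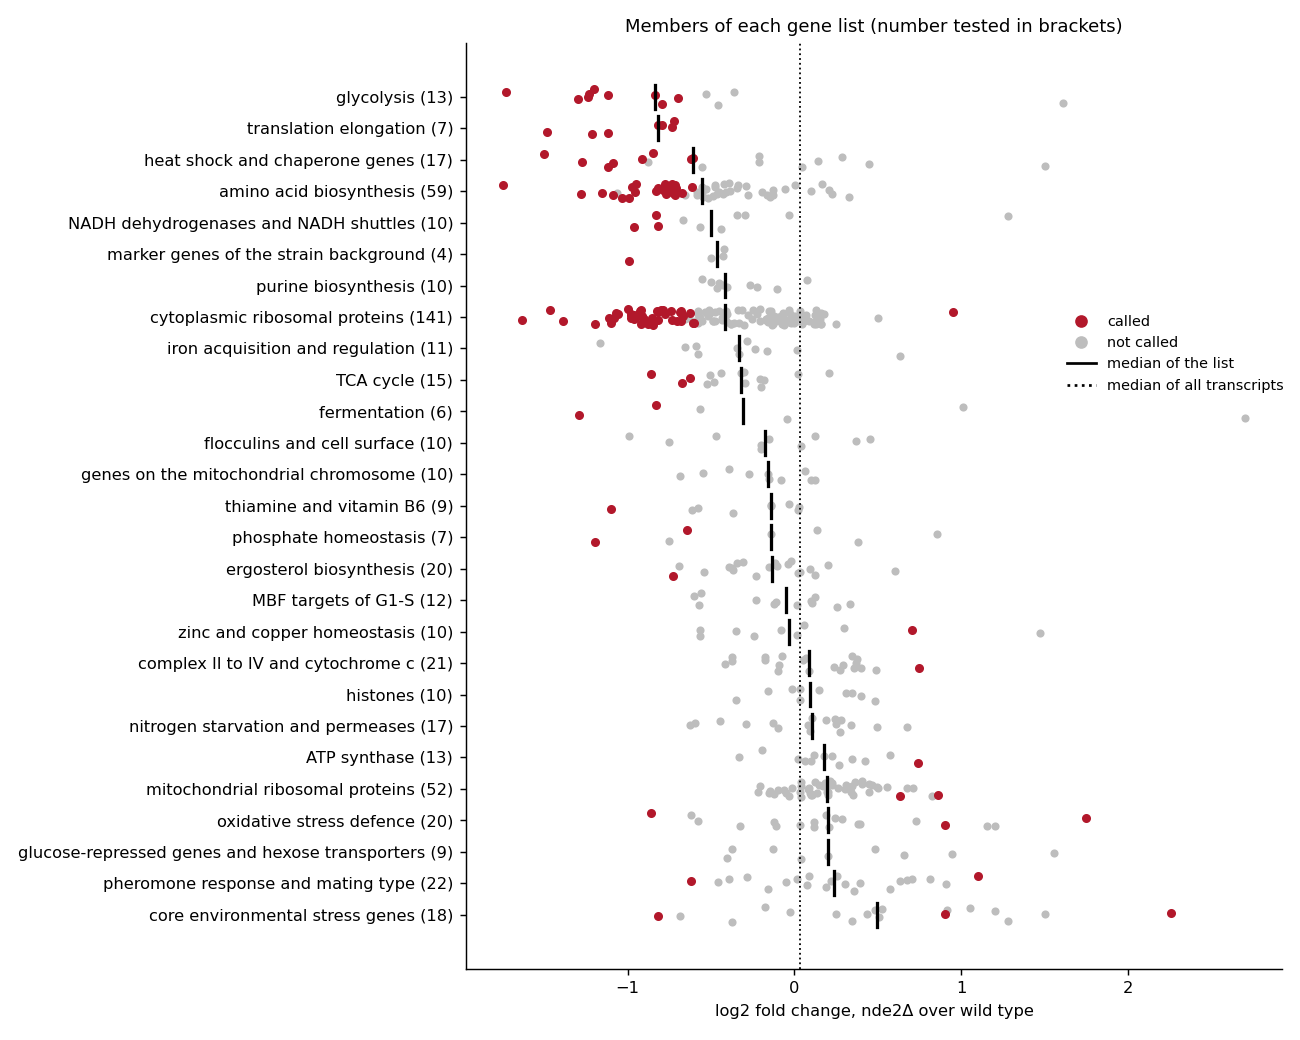
Log2 fold change of *nde2*Δ over wild type for the tested members of 27 gene lists, ordered by the median of the list (black bar), with altered members in red, others in grey and the median of all transcripts as a dotted line. The lists of glycolysis, translation elongation and chaperones have the lowest medians (-0.83, -0.82 and -0.61), and core environmental stress genes the highest (0.49), with the deposited scaling. Without replicate 1 this highest median was 0.13, below the 0.23 of mitochondrial ribosomal protein genes.

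Noncoding transcripts made up the other end of the distribution. Of 372 transcripts named as antisense 43 rose and 0 fell, of the other noncoding transcripts 105 rose (29.7%) and 3 fell, and of 26 small nucleolar or spliceosomal RNAs 12 rose and 0 fell, whereas 82 of 4714 protein-coding genes rose. Without replicate 4 these counts of rises were 23, 68, 7 and 55, and without replicate 1 they were 24, 75, 6 and 60. In unscaled CPM they were 107, 176, 17 and 474, so most rises were then protein-coding. Of the 165 transcripts that rose and were noncoding or of another type 135 overlap another gene, 50 of them on the same strand, and in 90 the groups did not overlap. The libraries were primed on poly(A), and the share of the small nucleolar RNAs that carries it was not measured.

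The largest rise among altered transcripts was that of *SPNCRNA.1651* (chromosome II, 3962699 to 3963115, plus strand), with 49.6, 21.1, 23.9 and 46.8 CPM in the *nde2*Δ libraries, against 1.79 to 9.41 CPM in wild type with a median of 4.90 CPM (log2 fold change 2.90, SE 0.40, adjusted p = 0.00083, limma). *omt3*, annotated as a meiosis-specific noncoding RNA (chromosome I, 4516070 to 4517070, plus strand) that overlaps no other gene, had 29.4, 22.3, 24.4 and 28.3 CPM in the *nde2*Δ libraries, against 0 to 6.114 CPM in wild type with a median of 3.71 CPM (log2 fold change 2.79, SE 0.29, adjusted p = 0.00034, limma). Its 4 values were close together. *SPNCRNA.993*, which ends just before *omt3* on the same strand, had 14.2, 11.13, 9.44 and 17.1 CPM in the *nde2*Δ libraries, against 0 to 5.07 CPM in wild type with a median of 1.40 CPM (log2 fold change 2.43, SE 0.43, adjusted p = 0.0053, limma). *SPNCRNA.423* (chromosome II, 3555918 to 3556114, plus strand), also free of overlap, had 68.9, 40.9, 47.7 and 44.1 CPM in the *nde2*Δ libraries, against 5.60 to 12.127 CPM in wild type with a median of 9.03 CPM (log2 fold change 2.54, SE 0.21, adjusted p = 6.0e-05, limma). In these transcripts all *nde2*Δ libraries were above all wild-type libraries. *SPNCRNA.1114*, *SPNCRNA.906* and *SPNCRNA.1436* rose by 2.62, 2.50 and 2.39 on the log2 scale, and *SPNCRNA.1436* was higher in replicates 1 and 4 (258 and 253 CPM) than in replicates 2 and 3 (79.1 and 93.4 CPM).

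Other large rises came mostly from replicate 1. *sme2*, which gives the meiotic noncoding RNA meiRNA, had 111, 15.9, 13.9 and 12.6 CPM in the *nde2*Δ libraries, against 2.33 to 7.83 CPM in wild type with a median of 4.15 CPM (log2 fold change 2.47, SE 0.53, adjusted p = 0.01, limma). *prl65* had 255, 21.5, 21.4 and 20.7 CPM in the *nde2*Δ libraries, against 3.59 to 12.9 CPM in wild type with a median of 7.57 CPM (log2 fold change 2.48, SE 0.61, adjusted p = 0.02, limma). Replicates 2 to 4 were nonetheless above every wild-type library in both. *SPAC4F10.17* (2.43) showed the same picture and was not altered without replicate 1, and *SPCC663.08c*, annotated as a short chain dehydrogenase, rose by 2.41. Among the small nucleolar RNAs, named after their values were seen, *snR5* had 242, 136, 142 and 172 CPM in the *nde2*Δ libraries, against 39.4 to 62.4 CPM in wild type with a median of 47.6 CPM (log2 fold change 1.77, SE 0.18, adjusted p = 0.00022, limma). *snoR61* had 95.7, 56.0, 48.7 and 86.4 CPM in the *nde2*Δ libraries, against 18.9 to 27.97 CPM in wild type with a median of 23.005 CPM (log2 fold change 1.57, SE 0.19, adjusted p = 0.00044, limma). The lowest *nde2*Δ library exceeded the highest wild-type library in each.

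Of the largest falls outside the lists, *aes1* (chromosome II, 70156 to 71310), annotated as a phenazine biosynthesis family protein, had 6.08, 14.3, 15.4 and 7.20 CPM in the *nde2*Δ libraries, against 23.1 to 35.9 CPM in wild type with a median of 31.4 CPM (log2 fold change -1.63, SE 0.24, adjusted p = 0.001, limma). *SPBPB2B2.01*, annotated as an amino-acid permease on chromosome II, had 4.05, 3.97, 4.47 and 2.25 CPM in the *nde2*Δ libraries, against 5.83 to 23.027 CPM in wild type with a median of 9.81 CPM (log2 fold change -1.495, SE 0.33, adjusted p = 0.013, limma). *SPBC24C6.04*, annotated as delta-1-pyrroline-5-carboxylate dehydrogenase of proline breakdown, had 37.0, 85.8, 77.5 and 32.8 CPM in the *nde2*Δ libraries, against 111 to 189 CPM in wild type with a median of 153 CPM (log2 fold change -1.46, SE 0.26, adjusted p = 0.0037, limma). *SPBC11B10.08* changed by -1.31. In *aes1* and *SPBC24C6.04* replicates 1 and 4 were lower than replicates 2 and 3, as in *rps1401*.

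The *nde2*Δ libraries were also compared with 4 libraries each of 3 knockout strains that had stood closest to them in an earlier description of the series. Since that choice was made on these data, low counts and shared differences from wild type are in part given by it and say nothing of other knockouts. Wild type did not enter these fits. Of 5641 transcripts 14 (0.248%) differed from *rpl901*Δ, 11 of them higher in *nde2*Δ, and 1 passed an adjusted p below 0.05 in limma, with 197 at an unadjusted p below 0.05. This was *rpl901* itself, the gene deleted in the other strain, with a log2 difference of 3.81 (adjusted p = 0.00094, limma). From *SPBC16A3.17c*Δ 22 of 5635 (0.39%) differed, 11 in each direction, and from *SPBC3E7.05c*Δ 15 of 5664 (0.265%), all lower in *nde2*Δ, with 0 at the adjusted p in limma in both and 211 and 137 at an unadjusted p below 0.05. *nde2*Δ and *SPBC3E7.05c*Δ libraries of the same number deviated together, and with the replicate number as a block 39 differed, 12 higher and 27 lower in *nde2*Δ, again with 0 at the adjusted p in limma and 296 at an unadjusted p below 0.05. Without replicate 2, 3 or 4 of *nde2*Δ the counts against *rpl901*Δ were 7, 9 and 24, and those against *SPBC16A3.17c*Δ 10, 13 and 40, and without replicate 1 or 4 those against *SPBC3E7.05c*Δ were 24 and 24. Against wild type the 3 strains had 494, 772 and 527 altered transcripts. These strains and *nde2*Δ were compared with the same 8 wild-type libraries, so values against wild type share them.

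Side by side, the log2 fold changes of *eno101* over wild type were -1.73 in *nde2*Δ, -1.47 in *rpl901*Δ, -1.57 in *SPBC16A3.17c*Δ and -1.47 in *SPBC3E7.05c*Δ. Those of *pgk1* were -1.24 in *nde2*Δ, -1.14 in *rpl901*Δ, -1.46 in *SPBC16A3.17c*Δ and -1.19 in *SPBC3E7.05c*Δ. Those of *ssa2* were -1.50 in *nde2*Δ, -1.02 in *rpl901*Δ, -1.45 in *SPBC16A3.17c*Δ and -1.35 in *SPBC3E7.05c*Δ. The enzyme and chaperone genes thus stood well below wild type in each of the 4 strains. For *gst2* the values were 1.75 in *nde2*Δ, 1.34 in *rpl901*Δ, 1.34 in *SPBC16A3.17c*Δ and 1.74 in *SPBC3E7.05c*Δ. For *SPNCRNA.909* the values were 2.28 in *nde2*Δ, 0.55 in *rpl901*Δ, 0.51 in *SPBC16A3.17c*Δ and 0.35 in *SPBC3E7.05c*Δ. Compared directly, *SPNCRNA.909* was higher in *nde2*Δ than in *rpl901*Δ by 1.73 (SE 0.37), than in *SPBC16A3.17c*Δ by 1.77 (SE 0.55) and than in *SPBC3E7.05c*Δ by 1.93 (SE 0.54) on the log2 scale, with unadjusted p = 0.00088, 0.0098 and 0.0063 and adjusted p above 0.9 in limma, so none passed the correction. The difference from *rpl901*Δ passed the thresholds of an altered transcript, and those from *SPBC16A3.17c*Δ and *SPBC3E7.05c*Δ did not. With the replicate block the differences from *rpl901*Δ, *SPBC16A3.17c*Δ and *SPBC3E7.05c*Δ were 1.73 (SE 0.31), 1.77 (SE 0.29) and 2.098 (SE 0.37). Each passed these thresholds, with adjusted p = 0.83, 0.58 and 0.49 in limma. *eno101* differed by -0.26 (SE 0.17), -0.16 (SE 0.26) and -0.26 (SE 0.23) from the same strains.

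Against the means of the 93 other knockout strains, a comparison added after the data were seen, 5 of 5498 transcripts (0.0909%) differed at the same thresholds in limma, and 0 passed an adjusted p below 0.05, with 215 at an unadjusted p below 0.05. The fit holds 1 mean of log2(CPM + 1) for *nde2*Δ, so its spread is that between the other strains. The geometric means of strains given here are such means turned back to CPM, and the added 1 narrows differences at low levels. *SPNCRNA.909* was the 1 higher transcript, by 2.03 on the log2 scale (SE 0.44, adjusted p = 0.061, limma). Its geometric mean of 13.0 CPM in *nde2*Δ was the highest of the 94 strains, whose others ranged from 0.960 to 7.41 CPM. The 4 lower ones, each with the lowest level of the 94 strains, were *cmk2*, a calmodulin-dependent kinase gene at -0.70, *kap113*, for a nuclear transport receptor at -0.71, *ksg1*, for a kinase upstream of other growth kinases at -0.60, and *yme1*, for a mitochondrial protease at -0.65. *nde2* itself ranked 46 of 94 from the lowest, with 356 CPM in *nde2*Δ, a median of 360 CPM over the other strains and 364 CPM in wild type.

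For the 4 transcripts given here *nde2*Δ stood near the end of the 94 strains but not at it. *eno101* had a geometric mean of 3190 CPM in *nde2*Δ, rank 4 of 94 from the lowest, a median of 6373 CPM in the other strains and 10573 CPM in wild type, which was above all 94 strains. *tef101* ranked 3 with 2198 CPM in *nde2*Δ, against a median of 4393 CPM in the others and 6145 CPM in wild type, and *ssa2* ranked 4 with 1128 CPM, against 2299 CPM and 3191 CPM. *SPNCRNA.1651* ranked 90 with 32.9 CPM, against 8.32 CPM and 4.52 CPM. For these genes the median of the other knockout strains lay between *nde2*Δ and wild type. Over the altered transcripts, 159 of the 199 lower ones placed *nde2*Δ among the 10 lowest strains and 205 of the 247 higher ones among the 10 highest, a description only, since the transcripts were chosen in these libraries. For 197 of the 199 lower and 228 of the 247 higher ones, most of the 94 strains lay on the *nde2*Δ side of wild type. Every strain was set against the same wild-type libraries.

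**Figure D5:**
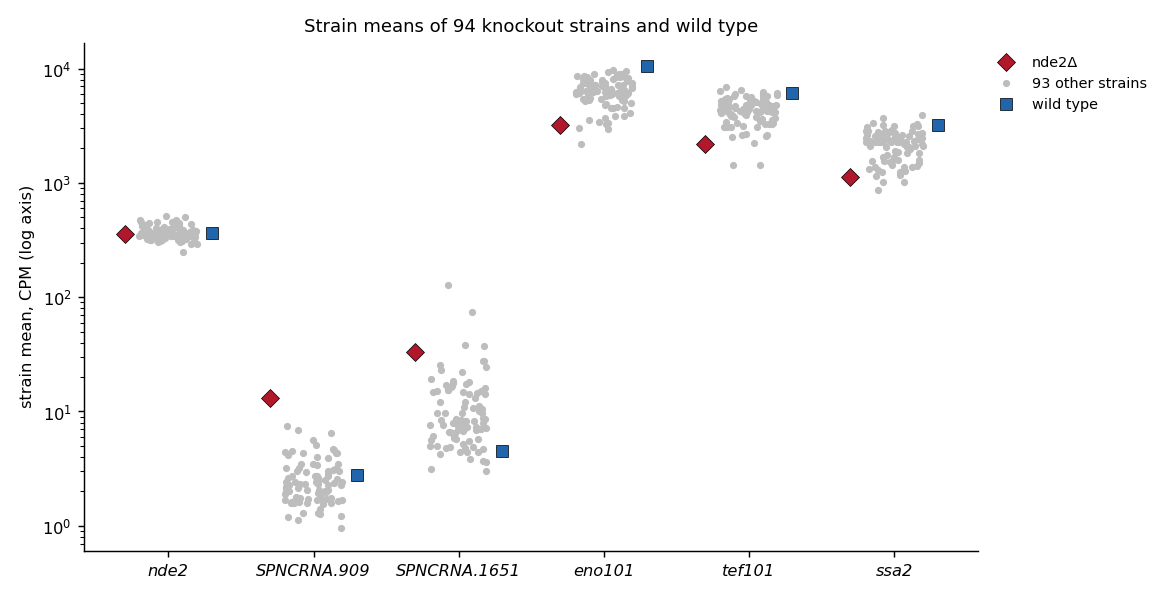
Geometric mean level in CPM (log axis) of 6 transcripts in *nde2*Δ (red diamond), in each of the 93 other knockout strains (grey points) and in wild type (blue square). The means are of log2(CPM + 1), turned back to CPM. *SPNCRNA.909* is highest in *nde2*Δ at 13.0 CPM, while for *eno101*, *tef101* and *ssa2* the *nde2*Δ mean is among the 4 lowest strains and most strains sit below wild type.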

How the data were processed

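RNA of 4 *nde2*Δ and 8 wild-type libraries was measured by 3′-end sequencing (75-base reads, 13 PCR cycles). The deposited table holds CPM of 7259 genes, scaled by the authors (ASM294v2). The submitters' processing notes name Subread 1.6.2, DESeq2, STAR 2.6.1b and HTSeq 0.9.0, and which of them counted the reads, and whether by strand, is not given in the sources used here. The deposited values of 1 or more had lost the decimal point, so their unit was taken as other than plain CPM. Each was restored as the whole multiple of the CPM of 1 read in its library, helped by the other libraries of its strain. Of the 87108 values in the 12 libraries 10.04% had more than 1 possible place. On data simulated around the restored values, 0.047% of all values were wrong. Since the restored values served as the truth there, this does not measure misplacement in the deposited table.

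Log2 CPM was compared with limma 3.58.1 (R 4.3.3), two-sided, after values under 1 CPM were removed and transcripts with at least 3 of 4 and 6 of 8 values kept, so a transcript may lack a value in some libraries. No value was imputed. Altered transcripts have a log2 fold change of 0.6 or more in size and p of 0.005 or less, the thresholds of the study. The step was tested on simulated data. Tables were built with Python 3.11.15, pandas 2.3.3 and numpy 2.4.6. Gene types, products and sequences come from RefSeq ASM294v3, in which 6846 of the 7259 IDs matched.

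Named were the 12 largest rises and the 12 largest falls among altered transcripts with an adjusted p below 0.05, groups that did not overlap and a group mean of at least 10 CPM, besides *nde2*, *nde1*, 5 genes on each side of *nde2*, up to 4 altered members of a list per direction, and the 2 most abundant members of a list with none. Other members are given as examples and were chosen after their values were seen, as were those high in replicate 1. The strains compared, the genes and the 27 lists were chosen with earlier results of these data known. In the oxidative stress list the manganese superoxide dismutase was set to its own ID after the values were seen, since the table gives its symbol to an antiporter. Its list counts stayed at 2 higher and 1 lower. Same-numbered *nde2*Δ and *SPBC3E7.05c*Δ libraries had correlated deviations (r = 0.61, 0.13, 0.32 and 0.45 for replicates 1 to 4), so the replicate block is given beside that comparison. This pairing is seen in the data and was examined after the counts were known. Alternatives covered scaling, filters, pseudocounts, wells and left-out libraries. Counting intervals and floors cover counting error only.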

Additional observations from a re-analysis of the deposited data

Results flagged for a closer look

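Of 130 pairs of a group and a named transcript examined, 8 had a library set apart from the rest of its group by more than Dixon's 95% limit, and chance sets apart about 1 group in 20. In *nde2*Δ replicate 1, *SPNCRNA.906* was at 54.7 CPM, against 25.4 to 28.8 CPM in the other *nde2*Δ libraries. *prl65* was at 255 CPM there, against 20.7 to 21.5 CPM. *sme2* was at 111 CPM, against 12.6 to 15.9 CPM. *SPAC4F10.17* was at 80.5 CPM, against 10.8 to 14.7 CPM. *hsp9* was at 3546 CPM, against 517 to 671 CPM. Replicate 1 thus accounts for 5 of the 8.

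Among wild-type libraries, replicate 2 of well A2 labelled wt2 had 579 CPM of *hsp9*, against 122 to 230 CPM in the others, and 1022 CPM of *eca39*, against 1249 to 1387 CPM. *omt3* was at 0 in wild-type replicate 3 of well A2, against 1.92 to 6.114 CPM in the others. Between strains, *rpl901* differed with a log2 difference of 3.81 for *nde2*Δ minus *rpl901*Δ (adjusted p = 0.00094, limma), in the strain whose own gene it is.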

How the results depend on the processing

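The main comparison gave 446 altered transcripts, 247 higher and 199 lower. In unscaled CPM it gave 829, 780 and 49, against the wild type of well A2 only 266, 152 and 114, and against well A1 only 339, of which 179 were higher. Over protein-coding transcripts only, 278 were altered, 82 of them higher, and with ambiguous values left out 97 were lower. With no filter there were 518, with 2 CPM as the minimum 417, with log2(CPM + 1) 449, with log2(CPM + 0.5) 435 and with voom 471. Chaperone genes that fell numbered 4 in unscaled CPM, 5 against well A1 only and 4 against well A2 only. In unscaled CPM 3 elongation genes, 6 amino acid genes and 17 ribosomal protein genes fell, and against well A2 only 15 amino acid genes and 27 ribosomal protein genes. Leaving out 1 library at a time gave 336 to 453 altered transcripts, 156 to 260 higher and 180 to 226 lower. The fallen genes then numbered 9 in glycolysis each time, 5 to 9 among chaperones (7 without replicate 1), 5 to 7 in elongation, 21 to 25 in amino acid synthesis and 35 to 62 among ribosomal proteins, and the log2 fold change of *nde2* ran from -0.22 to 0.09. With 1 *nde2*Δ library left out, the counts against other strains ran from 7 to 24 for *rpl901*Δ, 10 to 40 for *SPBC16A3.17c*Δ and 11 to 24 for *SPBC3E7.05c*Δ, and at an adjusted p below 0.05 they were 1, 0 and 0. The cause was not tested for any of these. Of the 63 altered transcripts named, 38 stayed altered in every setting run and 25 did not in at least 1.

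The groups share replicate numbers. The correlation of deviations between same-numbered *nde2*Δ and wild-type libraries was 0.153 and 0.128 for replicates 1 and 2, 0.0937 and 0.0721 for replicate 3 in the 2 wells, and 0.244 and 0.219 for replicate 4, so not every pair passed 0.1, although each *nde2*Δ library correlated best with its own number. With the replicate number as a block the count was 457 (244 higher), while the 10 libraries it used gave 410 (226 higher) with no block. The other 2 wild-type libraries share a well and a number and were left out of both. Against *rpl901*Δ and *SPBC16A3.17c*Δ, where replicate 3 was under 0.1 (0.0976 and -0.04), the block gave 30 and 40, and against *SPBC3E7.05c*Δ 39. Depth limits the noncoding transcripts: 3 reads are up to 2.27 CPM in wild type, where *SPNCRNA.909* has a median of 2.58 CPM and *omt3* of 3.71 CPM.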
